A study of Homo sapiens with 9 samples.

Results

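ROS1 and 9 other receptor tyrosine kinases (MET, MST1R, DDR1, DDR2, EPHA2, EPHB4, FGFR1, FGFR2 and FGFR3) were followed through 3 groups of MCF10A-YAP cells. These are 10 of the 59293 genes in the annotation, and 9 of them were among the 15139 genes with enough reads for testing. ROS1 was on the list because it fell with both guides, so its values against control cells are given as a description without a test. The other 9 genes were listed as relatives, and their rows of the same fit were read.

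The MCF10A line consists of human breast epithelial cells that are immortal but not transformed, and MCF10A-YAP cells also overexpress a constitutively active YAP, the transcription coactivator at the end of the Hippo pathway. All 3 groups carried this YAP and differed in the guide RNA of the CRISPR vector: TRAM2-KO1 and TRAM2-KO2 were aimed at TRAM2, a gene for a translocon-associated protein of the endoplasmic reticulum, and the control guide was non-targeting. Poly(A)+ RNA was sequenced from 3 libraries per group, lettered A, B and C. Cells were transduced, selected with antibiotic without any mention of picked clones, and collected at 70 to 80% confluency in medium with 5% horse serum, 10 ng/ml EGF, 10 µg/ml insulin and 0.5 µg/ml hydrocortisone. EGF and insulin are themselves ligands of receptor tyrosine kinases and were in the medium of all groups. Libraries are described as biological replicates, but the sources do not say whether separate cultures were transduced, so p values measure the spread between these libraries.

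A receptor tyrosine kinase crosses the plasma membrane with its ligand-binding part outside and its kinase inside, and ligand binding brings receptors together so that they phosphorylate each other. Adaptor proteins then dock on the phosphorylated tyrosines and pass the signal to the RAS-ERK and PI3K-AKT pathways. The listed receptors have different ligands: hepatocyte growth factor for MET, its relative MST1 for MST1R, collagen for DDR1 and DDR2, ephrins on neighbouring cells for EPHA2 and EPHB4, and fibroblast growth factors for FGFR1, FGFR2 and FGFR3. ROS1 is best known from gene fusions that drive tumours, and in the mouse its ligand NELL2 acts on the epididymal epithelium.

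TRAM2 itself (ENSG00000065308, chr6:52362206-52441858, minus strand) had 219, 209.9 and 203 counts-per-million (CPM) in TRAM2-KO1 cells and 216, 212 and 210.5 CPM in TRAM2-KO2 cells, against 481, 464 and 475 CPM in control cells. Coordinates are those of the build GRCh37. The TRAM2 transcript fell with both guides, by 1.17 on the log2 scale with TRAM2-KO1 (adjusted p = 4.93e-08) and by 1.16 with TRAM2-KO2 (adjusted p = 4.7e-08). CPM here are estimated reads scaled by the TMM-adjusted library size, and adjusted p values come from edgeR's quasi-likelihood test with Benjamini-Hochberg adjustment over the 15139 genes. The libraries held 2.17e+07 to 2.76e+07 estimated reads each. The epithelial identity of the cells showed in KRT5, at a mean of 1057 CPM in TRAM2-KO1, 1232 in TRAM2-KO2 and 1128 in control cells, while the basal factor TP63 had 1 to 3 reads per library. Of the leukocyte markers, PTPRC had 0 to 1 and CD3E 0 reads per library, while CD68, a lysosomal protein that is not limited to leukocytes, averaged 29.1 CPM in TRAM2-KO1, 27.2 in TRAM2-KO2 and 31.1 in control cells. The endothelial markers VWF and CDH5 had 0 to 3 and 0 to 1 reads. The fibroblast markers were low, at most LUM with 19 to 40 and COL1A1 with 5 to 31 reads.

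Within each library, levels relative to the other libraries also varied with the GC content of the gene. Spearman's correlation across genes between GC content and a library's deviation from the mean of all libraries was 0.181 in TRAM2-KO1 library A, but -0.528 in library B and -0.359 in library C. It was 0.395, 0.169 and -0.0898 in TRAM2-KO2 libraries A, B and C, and 0.145 to 0.253 in control libraries. Genes are not independent replicates, and these correlations are descriptions of the libraries. The receptor genes fall on both sides of this trend: the longest transcripts of DDR1, EPHB4, EPHA2, MST1R and FGFR3 had 61.6%, 60.8%, 60.3%, 59.9% and 62.2% GC, against 51.3% for FGFR1, 47.0% for FGFR2, 43.5% for MET, 41.7% for ROS1 and 41.6% for DDR2. For the tested receptors, differences from control after removing the trend are therefore given beside the fitted ones.

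ROS1 (ENSG00000047936, chr6:117608516-117747105, minus strand) was lower in both groups of TRAM2-targeted cells. It had 26.4, 28.6 and 29.5 CPM in TRAM2-KO1 cells and 28.3, 28.8 and 30.6 CPM in TRAM2-KO2 cells, against 46.2, 42.5 and 48.4 CPM in control cells. All 6 targeted libraries lay below the lowest control library, and the libraries of the 2 guides overlapped. The means were 28.2 ± 1.61, 29.2 ± 1.17 and 45.7 ± 3.0 CPM (SD, n = 3 each), in the order TRAM2-KO1, TRAM2-KO2 and control. These means rest on 620 to 759, 728 to 838 and 1036 to 1181 estimated reads per library. The log2 difference from control was -0.70 with TRAM2-KO1, a drop of 38.3%, and -0.64 with TRAM2-KO2, a drop of 36.0%. After removal of the GC trend the differences were -0.74 and -0.64.

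The comparison of the 2 guides with each other was not used to choose ROS1. The log2 difference of TRAM2-KO2 over TRAM2-KO1 was 0.05 (SE 0.0630, 95% interval -0.09 to 0.19, adjusted p = 0.687), so no difference in ROS1 between the guides was detectable with 3 libraries each, and the interval bounds its size. It was 0.10 with the GC trend removed (adjusted p = 0.377). The 3 other tested genes within 500 kb of ROS1 did not pass the test in any comparison. DCBLD1, 27.9 kb away, differed from control by -0.12 with TRAM2-KO1 (adjusted p = 0.154) and by -0.11 with TRAM2-KO2 (adjusted p = 0.177). For GOPC, which encodes a Golgi-associated trafficking protein and is the partner of ROS1 in a known gene fusion, these differences were 0.00 and -0.01. NUS1, a subunit of the enzyme that makes dolichol, differed by 0.13 (adjusted p = 0.094) and 0.05 (adjusted p = 0.622).

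**Figure D1:**
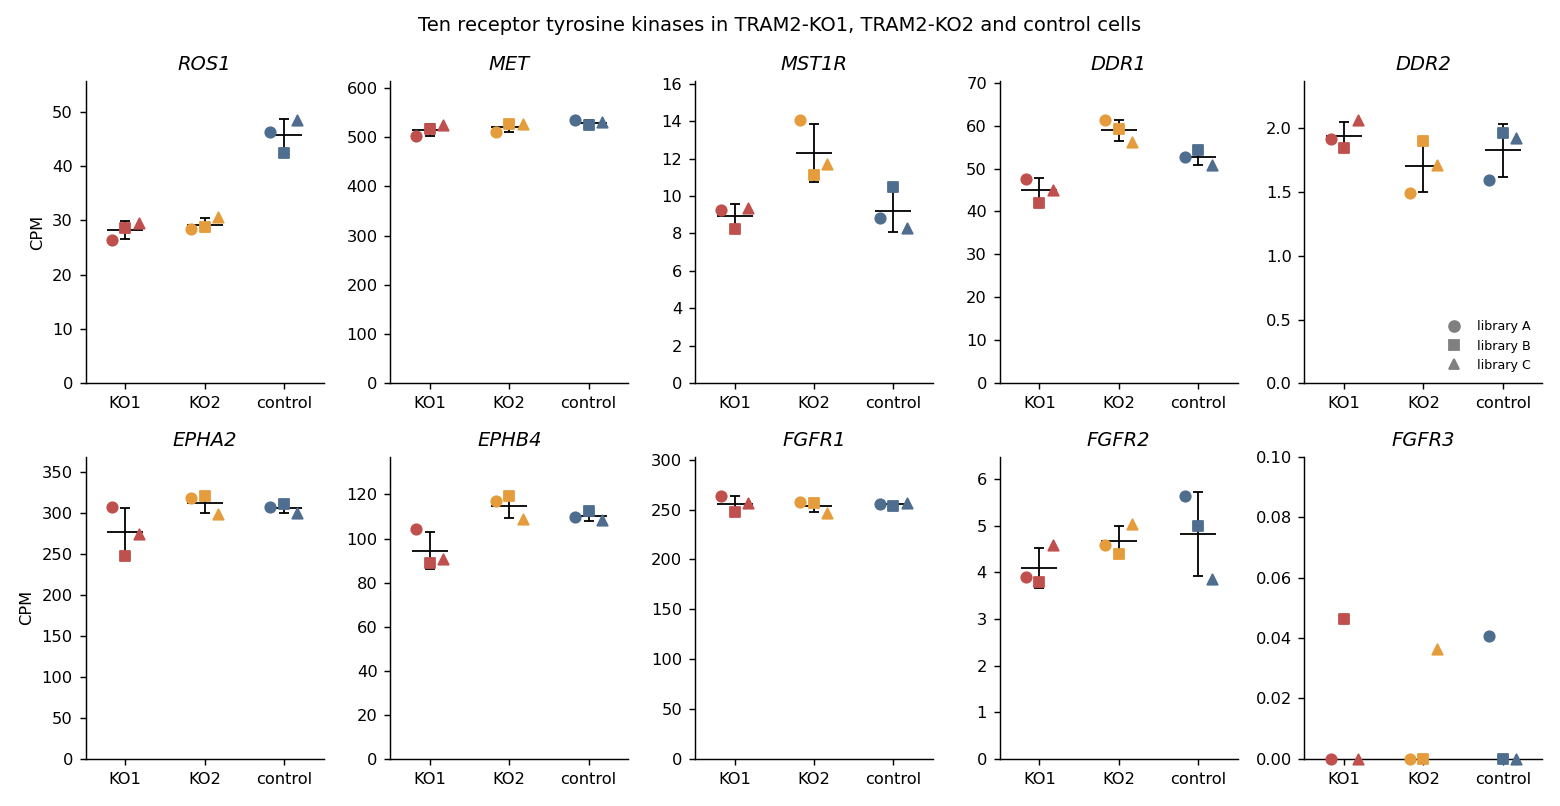
CPM (linear axes from 0, a separate scale for each gene) of the 10 receptor tyrosine kinases in TRAM2-KO1, TRAM2-KO2 and control cells, with 1 point per library, the shape giving its letter, and the mean with SD in black (n = 3; none drawn for FGFR3, which had 0 or 1 read). ROS1 lies between 26.4 and 30.6 CPM in the 6 targeted libraries and between 42.5 and 48.4 CPM in the control libraries, while MET spans 502 to 534 CPM and FGFR1 247 to 263 CPM over all 9 libraries.

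Salmon divided nearly all ROS1 reads between 2 long transcripts, and the share given to ROS1-201 was lower in every TRAM2-KO1 library than in any other. The coding sequences of ROS1-201 (7417 nt) and ROS1-202 (7435 nt) differ at 3 places. They are shown here in the sense of the gene, with the coding bases that the transcripts do not share in capitals. Reads over these bases, or across the exon junctions where they are left out, can tell the transcripts apart.
ROS1-201, exon 4 of 44 (chr6:117735682-117735708, minus strand): AATGATACTTATGCCACCGTTTGTGAG
ROS1-202, exon 13 of 43 (chr6:117709146-117709197, minus strand): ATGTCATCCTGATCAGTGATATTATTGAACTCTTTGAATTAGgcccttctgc
ROS1-202, exon 26 of 43 (chr6:117674320-117674332, minus strand): CAGgaaaaaccct
The first stretch is a whole exon of 27 bases that ROS1-202 skips, and the others are 42 and 3 bases by which an exon of ROS1-202 starts earlier. All 3 lengths are multiples of 3, and the coding lengths are 7023 bases for ROS1-201 and 7041 for ROS1-202.

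ROS1-201 had 8.02, 9.16 and 7.03 CPM in TRAM2-KO1 cells and 12.2, 14.9 and 13.0 CPM in TRAM2-KO2 cells, against 23.3, 20.6 and 22.5 CPM in control cells. The 3 groups did not overlap, and the ratio to the control mean was -1.46 with TRAM2-KO1 and -0.73 with TRAM2-KO2 on the log2 scale. ROS1-202 had 18.0, 19.1 and 22.2 CPM in TRAM2-KO1 cells and 16.0, 13.6 and 17.4 CPM in TRAM2-KO2 cells, against 22.5, 21.5 and 25.2 CPM in control cells. For this transcript TRAM2-KO1 library C lay within the control range, and the log2 ratios of the means were -0.22 and -0.56. The third transcript, ROS1-203, stayed between 0.192 and 0.728 CPM.

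The share of ROS1-201 in all ROS1 reads was 28.7 ± 4.33% in TRAM2-KO1 cells, 45.8 ± 5.20% in TRAM2-KO2 cells and 48.5 ± 2.0% in control cells (SD, n = 3 each). Between the guides, the 3 TRAM2-KO2 libraries (43.0, 51.8 and 42.6%) lay above the 3 TRAM2-KO1 libraries (30.4, 32.0 and 23.8%), with a difference of 17.1 percentage points. The exact two-sided permutation test gave p = 0.1, the smallest that this test can give with 3 against 3 libraries, so it cannot take the difference past 0.05. The share rests on how Salmon divided reads that mostly fit both transcripts, and the error of that division is not in the files.

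**Figure D2:**
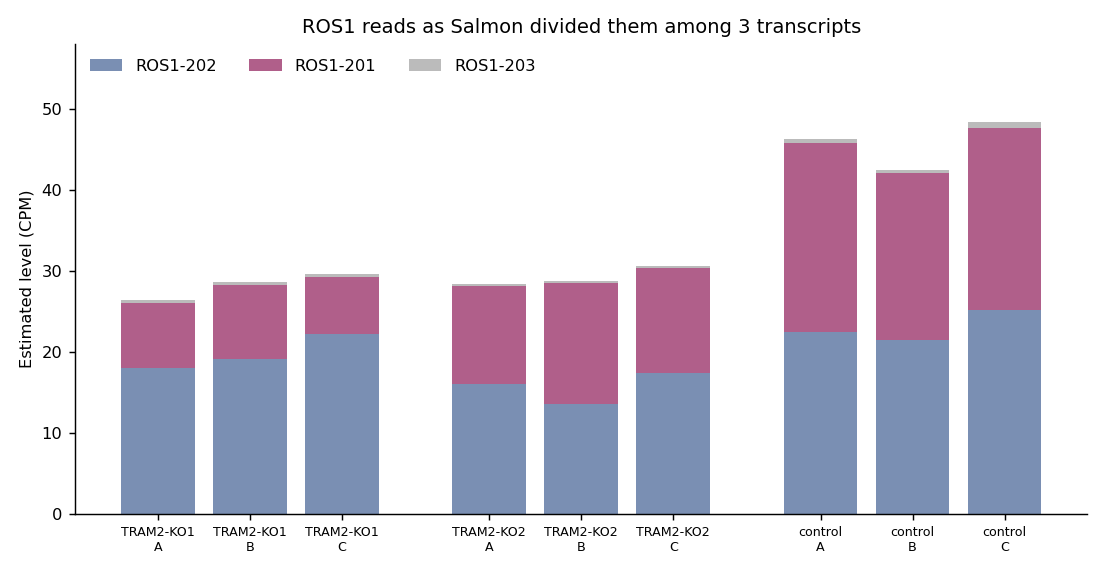
Estimated level (CPM) of the 3 ROS1 transcripts in each library, stacked, for TRAM2-KO1, TRAM2-KO2 and control cells. The ROS1-201 part is 7.03 to 9.16 CPM in TRAM2-KO1, 12.2 to 14.9 CPM in TRAM2-KO2 and 20.6 to 23.3 CPM in control libraries, and the ROS1-202 part is 13.6 to 25.2 CPM throughout.

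The genes whose pattern over the 9 libraries was most like that of ROS1 were CEMIP2, LMLN, LAMC1, EDEM3 and DSE, with a Pearson correlation of log2 CPM from 0.984 to 0.992. CEMIP2 breaks down hyaluronan at the cell surface, LAMC1 is a laminin chain of basement membranes, EDEM3 trims mannose from glycoproteins in the endoplasmic reticulum and DSE makes dermatan sulfate. The 9 points fall into 3 groups, so these correlations mostly restate which groups were high and low, and they were picked as the highest among tested genes with a mean of at least 1 CPM.

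Among the 8 other receptors that could be tested, 0 changed with TRAM2-KO1 and 0 with TRAM2-KO2 at an adjusted p under 0.05. At an unadjusted p under 0.05, 3 were lower with TRAM2-KO1 (DDR1, EPHB4 and EPHA2) and 2 were higher with TRAM2-KO2 (MST1R and DDR1), and DESeq2 called 2 lower with TRAM2-KO1 (DDR1 and EPHB4) and 0 with TRAM2-KO2. Over all tested genes, at an adjusted p under 0.05, 0.753% rose and 2.15% fell with TRAM2-KO1, and 1.73% rose and 2.49% fell with TRAM2-KO2. The share at the unadjusted threshold was not computed. The median log2 difference of the 8 receptors was -0.09 with TRAM2-KO1 and 0.01 with TRAM2-KO2, beside 0.01 and -0.00 over all tested genes. These medians were not computed with the GC trend removed. Between the guides, 2 of 9 tested receptors, DDR1 and EPHB4, were higher in TRAM2-KO2 cells and 0 were lower, where 1.41% of all tested genes were higher and 0.865% lower. DESeq2 called 3 of the 9 higher, and 4 were higher at an unadjusted p under 0.05. The contrasts of the guides with control share the control libraries, so each is given by its own values.

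MET (ENSG00000105976, chr7:116312250-116438431, plus strand), the receptor of hepatocyte growth factor, differed little between groups. It had 502, 518 and 525 CPM in TRAM2-KO1 cells and 509.9, 526 and 528 CPM in TRAM2-KO2 cells, against 534, 526 and 530.2 CPM in control cells. The log2 difference from control was -0.04 with TRAM2-KO1 (95% interval -0.10 to 0.02, adjusted p = 0.434) and -0.02 with TRAM2-KO2 (95% interval -0.08 to 0.04, adjusted p = 0.795). Between the guides it was 0.02 (adjusted p = 0.755), and without the GC trend the differences from control were -0.07 and -0.02. These narrow intervals bound any change in MET well within the differences measured for ROS1. Nearly all MET reads went to MET-202, with 95.2 to 99.1% in TRAM2-KO1, 95.7 to 96.2% in TRAM2-KO2 and 94.5 to 96.0% in control libraries. The longer MET-201 starts its exon 10 of 21 earlier by 54 bases, shown in capitals because they separate the minor transcript from the main one.
MET-201, exon 10 (chr7:116399391-116399454, plus strand): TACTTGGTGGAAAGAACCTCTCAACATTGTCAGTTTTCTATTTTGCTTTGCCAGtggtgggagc

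MST1R (ENSG00000164078, chr3:49924435-49941306, minus strand), the relative of MET also known as RON, had 9.25, 8.22 and 9.38 CPM in TRAM2-KO1 cells and 14.0, 11.2 and 11.7 CPM in TRAM2-KO2 cells, against 8.81, 10.5 and 8.32 CPM in control cells. The TRAM2-KO2 libraries lay above all others, and those of TRAM2-KO1 and control overlapped. TRAM2-KO1 differed from control by -0.04 on the log2 scale (adjusted p = 0.892). The log2 difference of TRAM2-KO2 was 0.42 from control (95% interval 0.17 to 0.67, adjusted p = 0.0726) and 0.46 from TRAM2-KO1 (95% interval 0.21 to 0.70, adjusted p = 0.0662), neither past 0.05. With the GC trend removed the difference from control was 0.43 and passed (adjusted p = 0.0257), while that from TRAM2-KO1 was 0.32 (adjusted p = 0.121). The gene rests on 178 to 376 reads per library.

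DDR1 (ENSG00000204580, chr6:30844198-30867933, plus strand), the collagen receptor of epithelia, had the smallest adjusted p of the receptors between the guides. It had 61.2, 59.2 and 56.3 CPM in TRAM2-KO2 cells, against 47.7, 42.0 and 45.1 CPM in TRAM2-KO1 cells, and control cells with 52.7, 54.3 and 50.9 CPM lay between them without overlap. TRAM2-KO2 cells were 1.31-fold higher than TRAM2-KO1 cells (log2 difference 0.39, SE 0.0523, 95% interval 0.27 to 0.50, adjusted p = 0.00448). Against control, the log2 difference was -0.23 with TRAM2-KO1 (adjusted p = 0.0507) and 0.16 with TRAM2-KO2 (adjusted p = 0.138), neither past the threshold. With the GC trend removed the difference between the guides was 0.22 (adjusted p = 0.018), that of TRAM2-KO1 from control was -0.04 (adjusted p = 0.701), and that of TRAM2-KO2 from control was 0.18 (adjusted p = 0.0258). With transcript length offsets the call between the guides was lost (log2 difference 0.21, adjusted p = 0.447), and TRAM2-KO2 differed from control by -0.23 (adjusted p = 0.471). With TRAM2-KO1 as library A alone, an alternative chosen after seeing the data, the difference between the guides was 0.31 (adjusted p = 0.0752), where the lone library is assumed to vary like the other groups.

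The 7 genes listed as basal epithelial markers were KRT5, KRT14, KRT17, TP63, ITGB4, CDH1 and EPCAM. CDH1 and EPCAM are not limited to basal cells. The summed level of the list was 2374 to 2510 CPM in TRAM2-KO2 cells, against 1885 to 2098 CPM in TRAM2-KO1 cells and 2145 to 2214 CPM in control cells. Between the guides 4 of the 6 tested basal markers were higher in TRAM2-KO2 and 0 lower, beside 1.41% of all tested genes higher and 0.865% lower. With the GC trend removed 5 were higher, where 474 of all tested genes changed in either direction instead of 344. Against control, CDH1 alone of the 6 fell with TRAM2-KO1, and 3 rose with TRAM2-KO2, where 2.15% of all tested genes fell and 1.73% rose. The members did not all follow DDR1: KRT17 averaged 346 CPM in TRAM2-KO1 and 399 CPM in TRAM2-KO2 cells, against 330.2 CPM in control cells. Of 6 listed luminal markers 5 were tested, and 0 passed in any comparison. With the GC trend removed 1 passed with TRAM2-KO2, where 984 of all tested genes changed instead of 639. All 5 were higher in TRAM2-KO2 than in TRAM2-KO1, by 0.07 to 0.27 on the log2 scale. KRT8 averaged 1065, 1162 and 1094 CPM and KRT18 791, 831 and 762 CPM in TRAM2-KO1, TRAM2-KO2 and control cells. In bulk RNA, fewer cells of a kind and less RNA per cell cannot be told apart, and the part of such markers in the DDR1 values was not tested. The genes whose pattern over the 9 libraries was most like that of DDR1 were NECTIN1, PROM2, SPATA2, SH2D3A and B3GNT3, with Pearson correlations from 0.975 to 0.988. NECTIN1 is an adhesion molecule of epithelial junctions and PROM2 a protein of plasma membrane protrusions. Salmon assigned DDR1 reads to 31 of 58 annotated transcripts, of which DDR1-239 took a mean of 66.5% in TRAM2-KO1, 67.4% in TRAM2-KO2 and 68.6% in control cells. Its share ranged from 46.0 to 82.2%, 59.4 to 75.5% and 60.4 to 76.2% within these groups. DDR1-226 moved between 0 and 307 reads within the control group, so the division among the transcripts was not stable enough to compare.

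DDR2 (ENSG00000162733, chr1:162601163-162757195, plus strand), the collagen receptor of mesenchymal cells, was low. It had 1.92, 1.85 and 2.06 CPM in TRAM2-KO1 cells and 1.49, 1.90 and 1.71 CPM in TRAM2-KO2 cells, against 1.59, 1.97 and 1.93 CPM in control cells. All groups overlapped, on 39 to 53 reads per library. The log2 difference from control was 0.09 with TRAM2-KO1 (95% interval -0.27 to 0.45, adjusted p = 0.813) and -0.10 with TRAM2-KO2 (95% interval -0.47 to 0.26, adjusted p = 0.875), so a change of the size seen in ROS1 lies outside these intervals. Between the guides it was -0.19 (adjusted p = 0.549), and without the GC trend the differences from control were 0.05 and -0.10.

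EPHA2 (ENSG00000142627, chr1:16450832-16482564, minus strand) binds ephrin-A ligands. It had 307.3, 247 and 274 CPM in TRAM2-KO1 cells and 317, 320.2 and 298 CPM in TRAM2-KO2 cells, against 307.2, 310.5 and 299 CPM in control cells. TRAM2-KO1 library A lay within the control range and libraries B and C below it. No difference passed the test: the log2 differences were -0.15 with TRAM2-KO1 (adjusted p = 0.264), 0.03 with TRAM2-KO2 (adjusted p = 0.914) and 0.18 between the guides (adjusted p = 0.177). Without the GC trend they were 0.01, 0.04 and 0.03.

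EPHB4 (ENSG00000196411, chr7:100400187-100425145, minus strand), a receptor of the transmembrane ligand ephrin-B2, had 117, 119 and 109 CPM in TRAM2-KO2 cells, against 104, 88.7 and 90.5 CPM in TRAM2-KO1 cells, and 109.9, 113 and 108 CPM in control cells. The TRAM2-KO1 libraries lay below all others. TRAM2-KO2 cells were 1.21-fold higher than TRAM2-KO1 cells (log2 difference 0.28, SE 0.0594, 95% interval 0.15 to 0.41, adjusted p = 0.0395). The log2 difference from control was -0.22 with TRAM2-KO1 (adjusted p = 0.0851) and 0.06 with TRAM2-KO2 (adjusted p = 0.754). With the GC trend removed these were -0.06 (adjusted p = 0.449) and 0.07 (adjusted p = 0.295), and the difference between the guides was 0.13, just outside the threshold (adjusted p = 0.0678), or just inside it with a replicate block added (0.13, adjusted p = 0.0452). With TRAM2-KO1 as library A alone, assumed to vary like the other groups, the difference between the guides was 0.14 (adjusted p = 0.4). The call was lost with transcript length offsets (0.15, adjusted p = 0.337), and also without TRAM2-KO1 library B (0.24, adjusted p = 0.0892) or C (0.26, adjusted p = 0.136), and without TRAM2-KO2 library A (0.27, adjusted p = 0.141) or B (0.26, adjusted p = 0.157).

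FGFR1 (ENSG00000077782, chr8:38257733-38326352, minus strand), a receptor of fibroblast growth factors, differed little between groups. It had 263, 248 and 256 CPM in TRAM2-KO1 cells and 257, 257 and 247 CPM in TRAM2-KO2 cells, against 255, 254 and 257 CPM in control cells. The log2 difference from control was 0.00 with TRAM2-KO1 (95% interval -0.06 to 0.07, adjusted p = 0.97) and -0.01 with TRAM2-KO2 (95% interval -0.08 to 0.06, adjusted p = 0.944). Between the guides it was -0.01 (adjusted p = 0.843), and without the GC trend the differences from control were 0.02 and -0.01.

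FGFR2 (ENSG00000066468, chr10:123237846-123357972, minus strand) was low, with 3.91, 3.79 and 4.59 CPM in TRAM2-KO1 cells and 4.59, 4.39 and 5.03 CPM in TRAM2-KO2 cells, against 5.63, 5.00 and 3.85 CPM in control cells. The groups overlapped. The log2 difference was -0.24 with TRAM2-KO1 (95% interval -0.56 to 0.09, adjusted p = 0.421) and -0.05 with TRAM2-KO2 (95% interval -0.37 to 0.27, adjusted p = 0.946), and -0.24 and -0.04 without the GC trend. Between the guides it was 0.19 (adjusted p = 0.511). FGFR2 uses either of 2 neighbouring exons for part of its ligand-binding region. The IIIb exon (148 bases, chr10:123278196-123278343) is typical of epithelium and the IIIc exon (145 bases, chr10:123276833-123276977) of mesenchyme. Transcripts with the IIIc exon took 75, 69 and 108 reads in TRAM2-KO1 cells, 86, 72 and 104 in TRAM2-KO2 cells and 71, 67 and 59 in control cells. Those with the IIIb exon took 17, 13 and 10 reads in TRAM2-KO1 cells, 32, 38 and 32 in TRAM2-KO2 cells and 11, 18 and 35 in control cells. Transcripts with neither exon took 15, 0 and 0 reads in TRAM2-KO1 cells, 5, 1 and 0 in TRAM2-KO2 cells and 56, 21 and 0 in control cells. Those with both took 16 reads in control library B and 2 in TRAM2-KO2 library C. This division moved within the control group, so it was not stable enough to compare the forms between groups. In every library the IIIc form had more estimated reads than the IIIb form.

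FGFR3 (ENSG00000068078, chr4:1795020-1810599, plus strand) had 0, 1 and 0 reads in TRAM2-KO1, 0, 0 and 1 in TRAM2-KO2 and 1, 0 and 0 in control cells. It was not tested, and a count of 0 allows up to 3 reads, which is 0.109 to 0.139 CPM in these libraries, for counting error only.

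**Figure D3:**
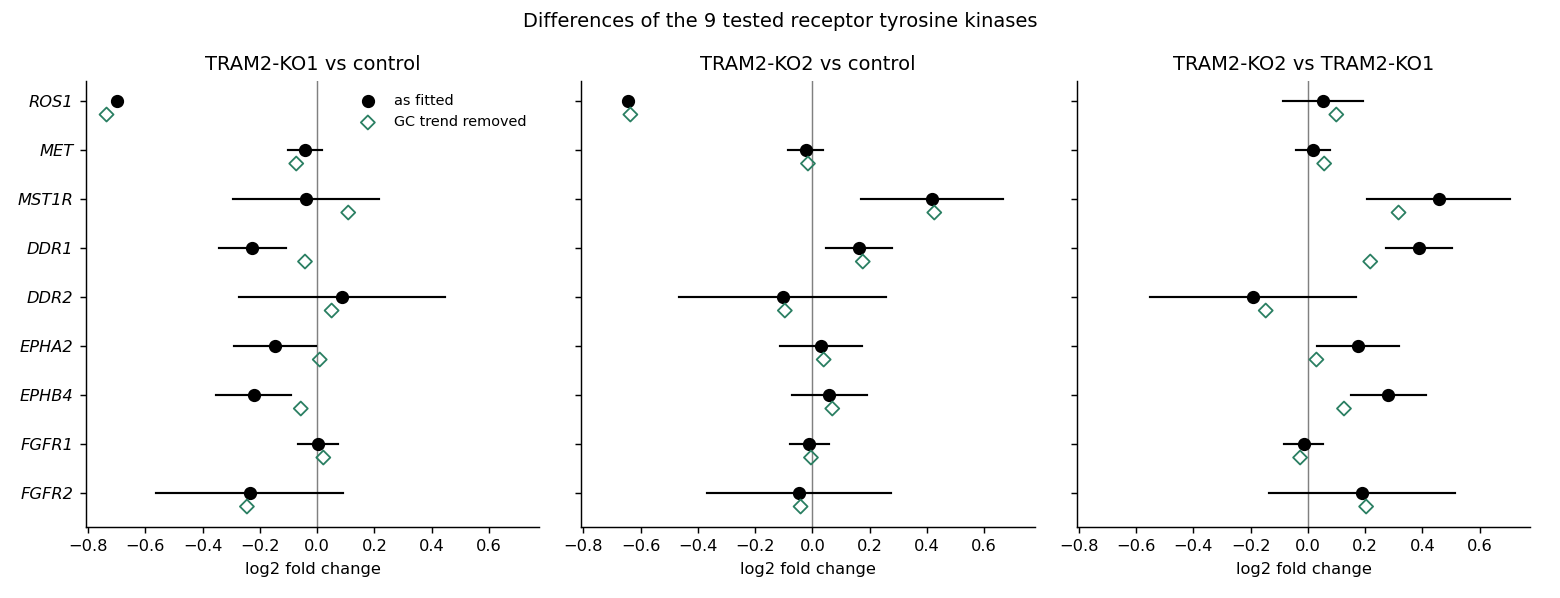
Log2 fold changes of the 9 tested receptors for each guide against control and for TRAM2-KO2 against TRAM2-KO1, with 95% intervals as lines (none for ROS1 against control, where it was chosen by its fall) and, as open diamonds, the value with the GC trend removed. ROS1 stands at -0.70 and -0.64 against control, and the intervals of DDR1 and EPHB4 lie above 0 between the guides.

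Per length, the receptors spanned a wide range. In transcripts-per-million (TPM), counted over transcripts longer than 1000 nt because short ones inflate FGFR1, control cells had EPHA2 at 91.2 ± 1.10 and MET at 91.2 ± 0.916, which overlapped, then FGFR1 at 72.3, EPHB4 at 27.6, DDR1 at 15.5, ROS1 at 6.96 ± 0.481, MST1R at 2.73, FGFR2 at 2.11 and DDR2 at 0.221. MST1R and FGFR2 overlapped in control cells, and the other neighbours in this order did not. With this length limit ROS1 was sixth in every group, at 4.23 ± 0.281 TPM in TRAM2-KO1 and 4.54 ± 0.256 TPM in TRAM2-KO2 cells. Over transcripts of all lengths ROS1 averaged 5.14, 5.12 and 8.29 TPM in TRAM2-KO1, TRAM2-KO2 and control cells, and MST1R 5.53, 8.25 and 5.85 TPM. MST1R then stood above ROS1 in both targeted groups and below it in control cells, with overlapping libraries in TRAM2-KO1 and control. The rank of ROS1 therefore depends on the length limit.

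Over the whole receptor tyrosine kinase family, 33 of 58 listed genes were tested. With TRAM2-KO1, 0 rose and 3 fell, ROS1, which was chosen for this, PTK7 and EPHB2, beside 0.753% and 2.15% of all tested genes. With TRAM2-KO2, 0 rose and ROS1 alone fell, beside 1.73% and 2.49%. With the GC trend removed 3 rose and 3 fell with TRAM2-KO2, where 984 of all tested genes changed instead of 639. PTK7, a pseudokinase of Wnt and planar polarity signalling, averaged 76.2 ± 4.34 CPM in TRAM2-KO1 and 83.4 ± 0.984 CPM in TRAM2-KO2 cells, against 93.5 ± 1.70 CPM in control cells (SD, n = 3 each), and fell by 0.29 on the log2 scale with TRAM2-KO1 (adjusted p = 0.00299), or by 0.18 with the GC trend removed (adjusted p = 0.0142). This call was lost with protein-coding transcripts only (-0.22, adjusted p = 0.103) and with transcript length offsets (-0.37, adjusted p = 0.12). EPHB2, another ephrin-B receptor, averaged 61.8 ± 3.10 CPM in TRAM2-KO1 and 68.7 ± 2.5 CPM in TRAM2-KO2 cells, against 73.3 ± 2.33 CPM in control cells, and fell by 0.24 with TRAM2-KO1 (adjusted p = 0.0168). This call was lost without control library A (adjusted p = 0.069) or B (adjusted p = 0.0836), or TRAM2-KO1 library C (adjusted p = 0.051). Between the guides DDR1 and EPHB4, both higher in TRAM2-KO2, were the only 2 of the 33 past the test. Of all tested genes 1.41% were higher and 0.865% lower. The family medians were -0.09, -0.04 and 0.08 in the 3 comparisons, beside 0.01, -0.00 and -0.01 over all tested genes. With the GC trend removed the family medians were -0.05, -0.03 and 0.05. At an unadjusted p under 0.05, 1 was higher and 12 lower with TRAM2-KO1, 6 higher and 4 lower with TRAM2-KO2, and 11 higher and 1 lower between the guides, while DESeq2 called 6 lower, 2 lower and 3 higher. The share of all tested genes at the unadjusted threshold was not computed, so no family trend is read from these counts. Over all genes DESeq2 called 662, 653 and 592 in the 3 comparisons. EGFR, named after its values were seen because it is the receptor of the EGF in the medium, averaged 1068 CPM in TRAM2-KO1, 1071 CPM in TRAM2-KO2 and 1055 CPM in control cells and did not pass the test in any comparison.

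**Figure D4:**
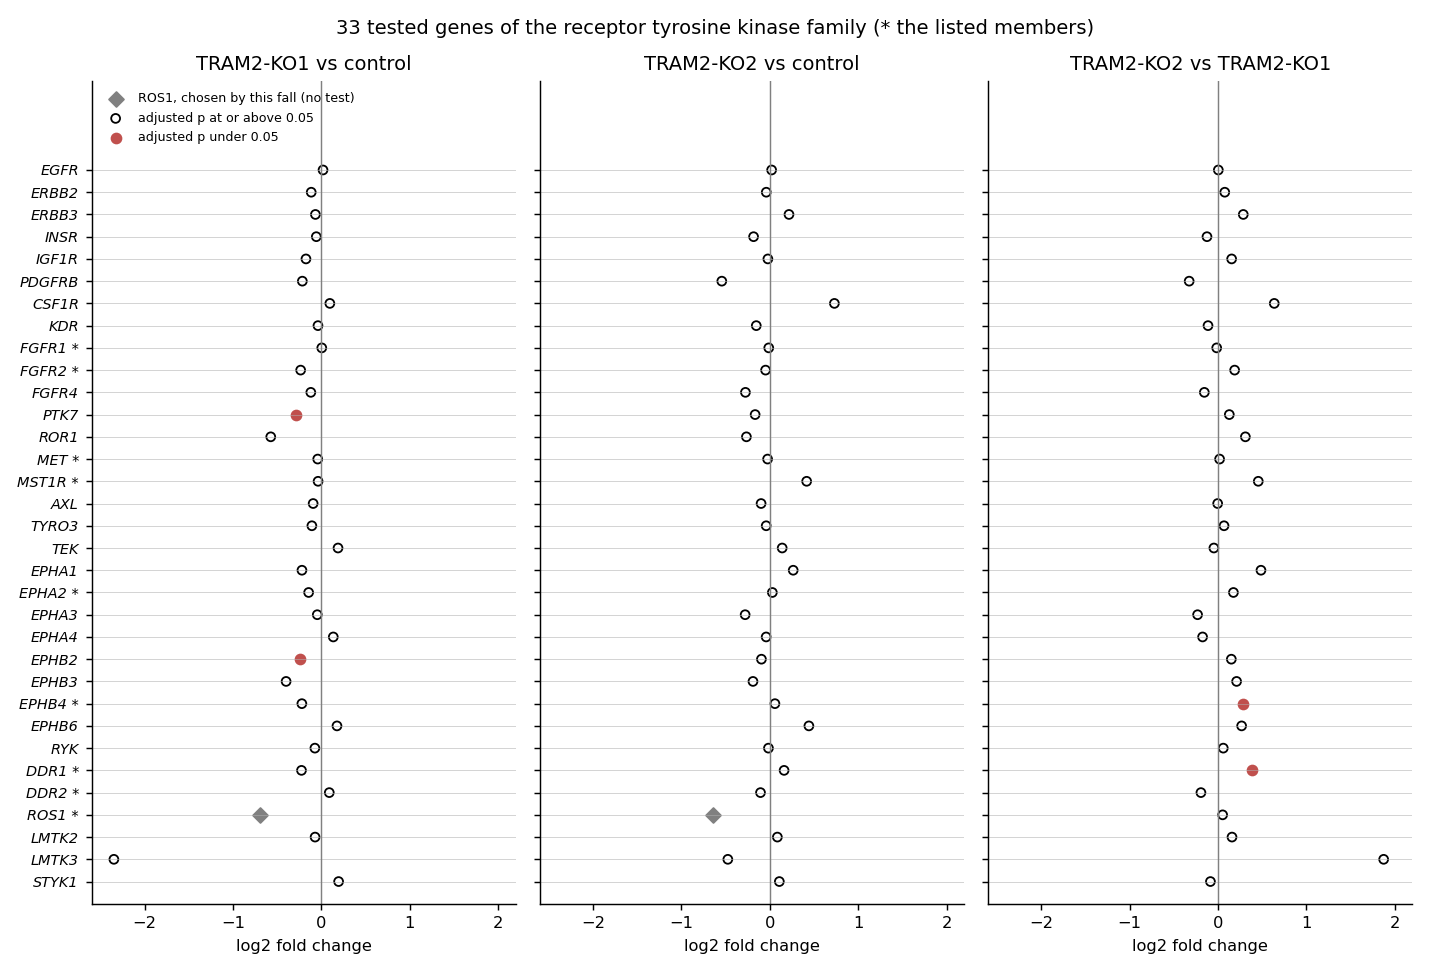
Log2 fold changes of the 33 tested genes of the receptor tyrosine kinase family in the 3 comparisons, with filled circles where the adjusted p was under 0.05, open circles elsewhere, a grey diamond for ROS1 against control, and asterisks at the listed receptors. ROS1 lies at -0.70 and -0.64, PTK7 and EPHB2 are filled with TRAM2-KO1, DDR1 and EPHB4 between the guides. The open circle at -2.35 is LMTK3, with under 1 CPM in the mean of each group, named here after its values were seen.

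Of 33 listed ligands of these receptors, 13 were tested and 0 changed in any comparison. At an unadjusted p under 0.05 there were 0 with TRAM2-KO1, and 1 higher and 1 lower both with TRAM2-KO2 and between the guides, and DESeq2 called 0 in each. NELL2 had 0 to 1 reads and HGF 0 reads in every library, so the ligands of ROS1 and MET were not detectable at this depth. MST1, the ligand of MST1R, averaged 1.5, 1.82 and 2.09 CPM, and FGF2, which binds the FGF receptors, 168, 155 and 156 CPM in TRAM2-KO1, TRAM2-KO2 and control cells. These ligands were picked as partners of the receptors after their values were seen.

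Several of the collagens that DDR1 and DDR2 can bind fell with both guides. Of 12 listed, 7 were tested, and 4 fell with each guide: COL4A1, COL4A2 and COL4A5, chains of the type IV collagen of basement membranes, and COL8A1, a short-chain collagen. Of all tested genes, 2.15% fell with TRAM2-KO1 and 2.49% with TRAM2-KO2. COL4A1 averaged 355 ± 14.6 CPM in TRAM2-KO1 and 388 ± 3.14 CPM in TRAM2-KO2 cells, against 585 ± 1.51 CPM in control cells (SD, n = 3 each), and fell by 0.72 and 0.59 on the log2 scale (adjusted p = 1.14e-06 and 5.19e-06). COL4A2 fell by 0.78 and 0.57, COL4A5 by 0.31 and 0.30, and COL8A1 by 0.34 and 0.44. The list's median was -0.34 with TRAM2-KO1 and -0.30 with TRAM2-KO2. Between the guides 0 passed, with 2 higher and 2 lower at an unadjusted p under 0.05 and 1 higher and 1 lower by DESeq2.

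Of 27 listed coreceptors, proteases and other modulators, 23 were tested. With TRAM2-KO1, 0 rose and 7 fell, beside 0.753% and 2.15% of all tested genes. With TRAM2-KO2, 2 rose and 4 fell, beside 1.73% and 2.49%. With the GC trend removed 5 rose and 4 fell, where 984 of all tested genes changed instead of 639. MMP14, a membrane metalloprotease that also cuts collagen, fell with both guides, by 0.62 and 0.46 (adjusted p = 6.18e-05 and 0.000321), as did the sheddases ADAM10, by 0.23 and 0.21, and ADAM17, by 0.23 and 0.23. ST14, the protease matriptase that activates HGF, averaged 20.3 ± 1.39 CPM in TRAM2-KO2 cells, against 10.6 ± 1.85 CPM in TRAM2-KO1 cells, and 19.2 ± 0.580 CPM in control cells. It fell by 0.84 with TRAM2-KO1 (adjusted p = 0.00151) and was 0.93 higher with TRAM2-KO2 than with TRAM2-KO1 (adjusted p = 0.0017). SPINT1, an inhibitor of such proteases, fell by 0.48 with TRAM2-KO1, and its relative SPINT2 rose by 0.29 with TRAM2-KO2. FLRT3, a membrane partner of FGF receptors, fell by 0.25 with TRAM2-KO1 and rose by 0.18 with TRAM2-KO2. The call of FLRT3 with TRAM2-KO2 was lost without any 1 of the 6 libraries (adjusted p from 0.0815 to 0.122). ADAM17 lost its calls without control library B (adjusted p = 0.0559 and 0.0621) or C (adjusted p = 0.0515 and 0.0562), and with TRAM2-KO2 also without library C (adjusted p = 0.0584) or with protein-coding transcripts only (adjusted p = 0.115). Between the guides 5 of the 23 were higher in TRAM2-KO2 and 0 lower, beside 1.41% and 0.865% of all tested genes. At an unadjusted p under 0.05, 1 was higher and 8 lower with TRAM2-KO1, 4 higher and 6 lower with TRAM2-KO2, and 10 higher and 3 lower between the guides. DESeq2 called 0 higher and 8 lower with TRAM2-KO1, 2 higher and 4 lower with TRAM2-KO2, and 7 higher and 0 lower between the guides. Over all genes DESeq2 called 662, 653 and 592 in either direction. The share of all tested genes at the unadjusted threshold was not computed, so no trend is read from these counts. The medians of the list were -0.09, -0.01 and 0.15 in the 3 comparisons, and -0.06, -0.00 and 0.06 with the GC trend removed.

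Downstream of the receptors, 27 of 29 listed adaptors and effectors were tested and 0 changed in any comparison. At an unadjusted p under 0.05, 3 were lower with TRAM2-KO1, 2 higher and 2 lower with TRAM2-KO2 and 3 higher between the guides, and DESeq2 called 0. All 18 listed feedback targets of ERK signalling were tested. With TRAM2-KO1, 2 rose and 0 fell, and with TRAM2-KO2, 3 rose and 0 fell, beside 0.753% and 1.73% of all tested genes that rose. At an unadjusted p under 0.05, 2 were higher and 2 lower with TRAM2-KO1 and 4 higher and 1 lower with TRAM2-KO2, while DESeq2 called 2 higher and 1 lower and 3 higher and 0 lower. EGR1, an immediate early transcription factor, averaged 98.9 ± 12 CPM in TRAM2-KO1 and 91.6 ± 7.32 CPM in TRAM2-KO2 cells, against 65.8 ± 1.79 CPM in control cells (SD, n = 3 each), and rose by 0.59 and 0.48 (adjusted p = 0.00308 and 0.00909). The EGR1 call with TRAM2-KO2 was lost without control library A (0.46, adjusted p = 0.0627). DUSP5, a nuclear phosphatase of ERK, rose by 0.24 and 0.27, the first call being lost without control library A (adjusted p = 0.059) or C (adjusted p = 0.0567), or TRAM2-KO1 library C (adjusted p = 0.05). DUSP4, a related phosphatase, rose by 0.25 with TRAM2-KO2 (adjusted p = 0.00225) and differed by 0.04 with TRAM2-KO1 (adjusted p = 0.555). The other 16 targets with TRAM2-KO1 and 15 with TRAM2-KO2 did not pass, and the medians of the list were 0.02, 0.05 and 0.03.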

How the data were processed

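The authors trimmed reads with cutadapt and used Salmon to make the deposited expected counts (estimated counts) and TPM of each transcript, without further normalisation; versions, transcript release and genome build: not given in the sources used here. The labels name a TruSeq RNA kit, while the study's methods describe a stranded one. Groups come from the sample titles; the series design text names other conditions. Estimated counts were summed per gene through GENCODE on GRCh37 (220336 of 226030 transcripts, 97.5%, matched, with 98.4 to 98.5% of reads) and rounded. Of 59293 genes, 15139 passed filterByExpr (minimum 10 reads). edgeR 4.0.16 (R 4.3.3) fitted all 9 libraries with TMM scaling, 1 term per group and two-sided quasi-likelihood tests, and "rose", "fell" and "changed" mean a Benjamini-Hochberg adjusted p under 0.05. Alternatives included DESeq2 1.42.0, other filters and scalings, a replicate block, removal of a GC trend (loess per library, with GC content of each gene's longest transcript), transcript length offsets and leaving out libraries. Scripts were tested on simulated data. Guide sequences are not reported here. The members and lists were chosen with earlier results of these data known. List counts at an unadjusted p under 0.05 have no share of all tested genes beside them, so no trend is read from them. The genes named are the 10 receptors, TRAM2, up to 8 genes of the family and up to 4 of each other list per comparison with the smallest p among those past the test, tested genes within 500 kb of ROS1, transcripts with at least 10% of a gene's reads, and the 5 genes most like ROS1 and DDR1.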

Additional observations from a re-analysis of the deposited data

Results flagged for a closer look

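By edgeR's test of TRAM2-KO2 against TRAM2-KO1 (n = 3 libraries each), the effects of the guides against the shared control differed for 8 listed genes, markers aside. The 8 were picked by passing this test: 2 of 33 tested family receptors, 5 of 23 modulators and 1 of 18 ERK feedback targets. All were higher in TRAM2-KO2 cells, where 1.41% of all tested genes were higher and 0.865% lower. Among the receptors these were DDR1, with a log2 difference of 0.39 (adjusted p = 0.00448), and EPHB4, with 0.28 (adjusted p = 0.0395). Among the modulators the log2 difference was 0.43 for FLRT3 (adjusted p = 0.000663), 0.93 for ST14 (adjusted p = 0.0017), 0.41 for SPINT1 (adjusted p = 0.0123), 0.19 for SPINT2 (adjusted p = 0.0335) and 0.83 for CBLC (adjusted p = 0.0311), a ubiquitin ligase of receptor turnover. Among the ERK feedback targets it was 0.20 for DUSP4 (adjusted p = 0.0146). With the GC trend removed, the values of EPHB4 and SPINT2 were 0.13 (adjusted p = 0.0678) and 0.12 (adjusted p = 0.076), that of SPINT1 was 0.26 (adjusted p = 0.0447, or 0.0747 with a replicate block added), and the other 5 also kept an adjusted p under 0.05. DDR1, FLRT3 and ST14 passed whichever library was left out. With TRAM2-KO1 as library A alone, chosen after seeing the data, the log2 differences were 0.31 for DDR1, 0.14 for EPHB4, 0.52 for FLRT3 and 0.70 for ST14. They were 0.34 for SPINT1, 0.16 for SPINT2, 0.60 for CBLC and 0.17 for DUSP4, so all but FLRT3 were smaller than with 3 libraries. SPINT1 was lost without TRAM2-KO1 library C (adjusted p = 0.0554), DUSP4 without TRAM2-KO2 library B (adjusted p = 0.0676), SPINT2 without TRAM2-KO1 library B or C or TRAM2-KO2 library A or B (adjusted p from 0.0663 to 0.133), and CBLC without TRAM2-KO1 library C or any TRAM2-KO2 library (adjusted p from 0.0526 to 0.136), with a replicate block (adjusted p = 0.0565) and with protein-coding transcripts only (adjusted p = 0.0613).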

How the results depend on the processing

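Over the alternatives ROS1 stood between -0.79 and -0.65 with TRAM2-KO1 and between -0.71 and -0.60 with TRAM2-KO2. The number of genes changed depended more on the settings. For TRAM2-KO1 it was 440, and 725 without a filter, 662 with DESeq2, 112 with transcript length offsets, 286 with only the 2 groups, 223 with TRAM2-KO1 as library A alone and 241 to 1952 leaving out a library. For TRAM2-KO2 it was 639, and 984 without the GC trend, 156 with length offsets and 325 to 367 leaving out a library. Between the guides it was 344, and 684 without a filter, 592 with DESeq2, 44 with length offsets, 221 with protein-coding transcripts only, 114 with only the 2 groups, 73 with library A alone and 114 to 1828 leaving out a library. The highest counts came without TRAM2-KO1 library A.

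Of the 8 receptors other than ROS1, 0 changed with TRAM2-KO1, but 2 without a filter, 1 with a mean of at least 5 CPM, 1 with DESeq2 size factors, 2 with DESeq2, and 0 to 3 leaving out a library. The 3 came without TRAM2-KO1 library A. With TRAM2-KO2, 0 changed, but 1 without a filter, 2 without the GC trend, 1 with only the 2 groups and 0 to 0 leaving out a library. Between the guides 2 changed, but 1 without the GC trend, 0 with length offsets, 1 with only the 2 groups, 0 with library A alone and 1 to 4 leaving out a library. Without TRAM2-KO1 library A 4 changed, and EPHB4 did not pass without TRAM2-KO1 library B or C or TRAM2-KO2 library A or B. DDR1 between the guides did not pass with length offsets (0.21, adjusted p = 0.447), and with them PTK7, EPHB2, COL4A5, COL8A1, ADAM17, DUSP5, SPINT2 and FLRT3 against control, and EPHB4, SPINT1, SPINT2, CBLC and DUSP4 between the guides, did not pass either. No pairing by replicate letter showed: deviations of same-letter libraries correlated from -0.09 to 0.11, and those of libraries with different letters from -0.15 to 0.13. Whether libraries of the same letter shared a culture or preparation was not tested. With a replicate block 404, 568 and 275 genes changed, and with the block and no GC trend 463, 889 and 390, with 1 receptor other than ROS1 for TRAM2-KO2. With only the 2 groups, EPHB4, SPINT1, SPINT2, CBLC and DUSP4 between the guides did not pass. Where library A stands alone, it is assumed to vary like the other groups.

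Small log2 differences turned sign. With TRAM2-KO1, FGFR1 was -0.0069 at 5 CPM, -0.049 with protein-coding transcripts and -0.018 to 0.022 leaving out a library. MST1R was 0.11 without the GC trend, also with the block, 0.088 with protein-coding transcripts, 0.0027 with library A alone and -0.11 to 0.057 leaving out a library. EPHA2 was 0.0093 without the GC trend, 0.0096 also with the block, and 0.0045 with library A alone, and DDR2 -0.0093 to 0.14 leaving out a library. With TRAM2-KO2, FGFR1 was 0.0010 without a filter and -0.021 to 0.0087 leaving out a library, FGFR2 -0.18 to 0.080 leaving out a library, and length offsets gave DDR1 -0.23, DDR2 0.51 and FGFR2 0.034. Between the guides length offsets gave ROS1 -0.032 and DDR2 0.46, and FGFR1 was 0.016 with protein-coding transcripts and -0.031 to 0.0068 leaving out a library. The cause of these changes was not tested. DDR2, FGFR2 and FGFR3 were limited by their read counts.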
